A study of Mus musculus with 7 samples.

Results

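Integrins are the receptors by which cells hold on to the matrix around them. The subunits followed here are 10 genes of smooth muscle and urothelium: Itgb1, Itga1, Itga3, Itga6, Itga7, Itgb4, Itga5, Itga8, Itgav and Itga9. They are 10 of the 18193 genes that the platform annotation named through a probe set assigned to a single gene. Between them they had 29 such probe sets, and the probe set with the highest mean over the 7 arrays stood for each gene.

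Whole mouse bladders were profiled on Affymetrix mouse 430 2.0 oligonucleotide arrays after 2 rounds of amplification. The adult group held 3 bladders and the postnatal day 1 (P1) group held 3 bladders, each from a single male FVB/N mouse carrying an EGFP reporter under the promoter of SMGA, the smooth muscle gamma actin encoded by Actg2. A single reference array held RNA of whole newborn (P1) wild-type FVB/N animals, a pool of 4 males and 4 females. The labels give the adults' age only as adult. Adult bladders were stored in liquid nitrogen and P1 bladders in a freezer, and this storage cannot be told apart from stage. All bladders carried the reporter and the newborn pool did not. Tissue, transgene, sex and pooling therefore differ together in each comparison with the newborn array, whose title names bladders while its source and protocol name whole animals. In the comparison of adult bladder with the newborn, stage differs along with them.

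An integrin is a pair of an alpha and a beta subunit that both cross the membrane. The alpha subunit largely sets which matrix protein is bound, and the beta subunit carries the tail to which talin, kindlins and integrin-linked kinase attach on the way to actin. Itgb1 pairs with Itga1, Itga3, Itga5, Itga6, Itga7, Itga8, Itga9 and Itgav, whereas Itgb4 pairs with Itga6 alone. In the bladder wall, smooth muscle cells are held to collagen, laminin, fibronectin and nephronectin, and the basal urothelial cells to the laminin of the basement membrane, in part through hemidesmosomes built on the Itga6-Itgb4 pair.

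The stretches of 250 bases just before the annotated gene starts were read from RefSeq (build GRCm38.p6), which gave a window for 7 of the 10 genes. Shown are Itga1 and Itga8, the pair that was higher in adult bladder than in the newborn, and Itga3, whose adult values lay below the newborn's. Capitals mark GGGCGG, the letters bound by Sp1-type factors.
Itga1 (chr13:115101965-115102214, minus strand): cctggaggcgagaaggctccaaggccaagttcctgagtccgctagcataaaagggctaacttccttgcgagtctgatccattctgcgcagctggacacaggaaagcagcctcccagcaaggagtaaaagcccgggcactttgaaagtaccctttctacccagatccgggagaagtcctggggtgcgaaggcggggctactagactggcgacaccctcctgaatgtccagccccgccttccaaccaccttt
Itga8 (chr2:12301945-12302194, minus strand): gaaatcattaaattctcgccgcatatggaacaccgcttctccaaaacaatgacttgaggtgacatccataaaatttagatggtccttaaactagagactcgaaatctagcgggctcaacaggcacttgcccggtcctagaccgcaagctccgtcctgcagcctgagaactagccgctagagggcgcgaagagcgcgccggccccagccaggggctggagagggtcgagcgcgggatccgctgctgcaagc
Itga3 (chr11:95076715-95076964, minus strand): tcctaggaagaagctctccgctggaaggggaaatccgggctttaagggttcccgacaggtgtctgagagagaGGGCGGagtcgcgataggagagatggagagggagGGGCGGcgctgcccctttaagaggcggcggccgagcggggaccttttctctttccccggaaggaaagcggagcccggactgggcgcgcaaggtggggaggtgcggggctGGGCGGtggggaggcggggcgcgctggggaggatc

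The letters searched were GGGCGG on either strand, the TEAD-bound letters CATTCC on either strand, the TATA-box letters TATAAA on either strand and, by name, the CArG box of serum response factor. The Itga3 window held 3 matches to GGGCGG and the Itga5 window 2 to CCGCCC, its other strand. The Itgb1 window held 1 match to GGGCGG. It also held 1 match to GGAATG, the other strand of CATTCC. No motif was matched in the windows of Itga1, Itga8, Itga9 and Itgav, which says only that these letters are not in those bases. Among 32851 RefSeq windows of the same length, 32.7% held GGGCGG, 12.6% held CATTCC, 12.4% held TATAAA and 1.47% held a CArG box, counting both strands. G and C made up 67.6% of the Itga3 window, 57.6% of that of Itga1 and 56.4% of that of Itga8, against a median of 52.4% over all windows. The share was 68.0% for Itgb1, 64.4% for Itgav, 58.4% for Itga9 and 55.6% for Itga5.

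The labelled tissue carried its defining markers. All 10 smooth muscle markers and all 15 urothelial markers lay above the array median on each bladder array. Skeletal muscle markers summed to between 2204 and 2758 intensity units in adult bladders, to between 33200 and 48750 in P1 bladders and to 287100 in the newborn. Array medians ran from 208.8 to 311.7 in the bladders and stood at 434.1 in the newborn. Differences from the newborn are therefore given on the deposited scale, most of them also after each array was centred on its own median, which takes away a shift of -0.68 (log2) at P1 and -0.67 in the adult. Intensities have no detection call here and the number of arrays limits the precision. The ratio of the Actb control signal at the transcript's end to that at its start differed by stage without overlap. It was 4.83, 3.84 and 5.15 in adult bladders, 3.18, 3.70 and 1.85 in P1 bladders and 3.09 in the newborn. For Gapdh the ratio ran from 15.3 to 19.6 in the adult and from 19.1 to 30.9 at P1, beside 21.4 in the newborn. The part of RNA quality in the integrin values was not tested.

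Between the stages, none of the 10 integrins passed the test. The estimates were lower in the adult for 7 and higher for 3, with a median difference of -0.40 (log2, adult minus P1) against 0.02 over all 23304 probe sets tested. By limma with Benjamini-Hochberg adjustment over all of those probe sets, 0 of 10 were called higher and 0 lower, where the background was 3.73% higher and 4.12% lower. At an unadjusted p under 0.05 there were 1 higher, Itga7, and 3 lower, Itga3, Itga5 and Itga9, while 23.8% of all probe sets were past that level. Adult and P1 values did not overlap for Itga7, higher in the adult, or for Itga3, lower in the adult; 14.4% of all probe sets were apart with the adult higher and 14.8% with the adult lower. In whole-organ RNA, fewer cells of a type and less RNA per cell cannot be told apart.

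**Figure D1:**
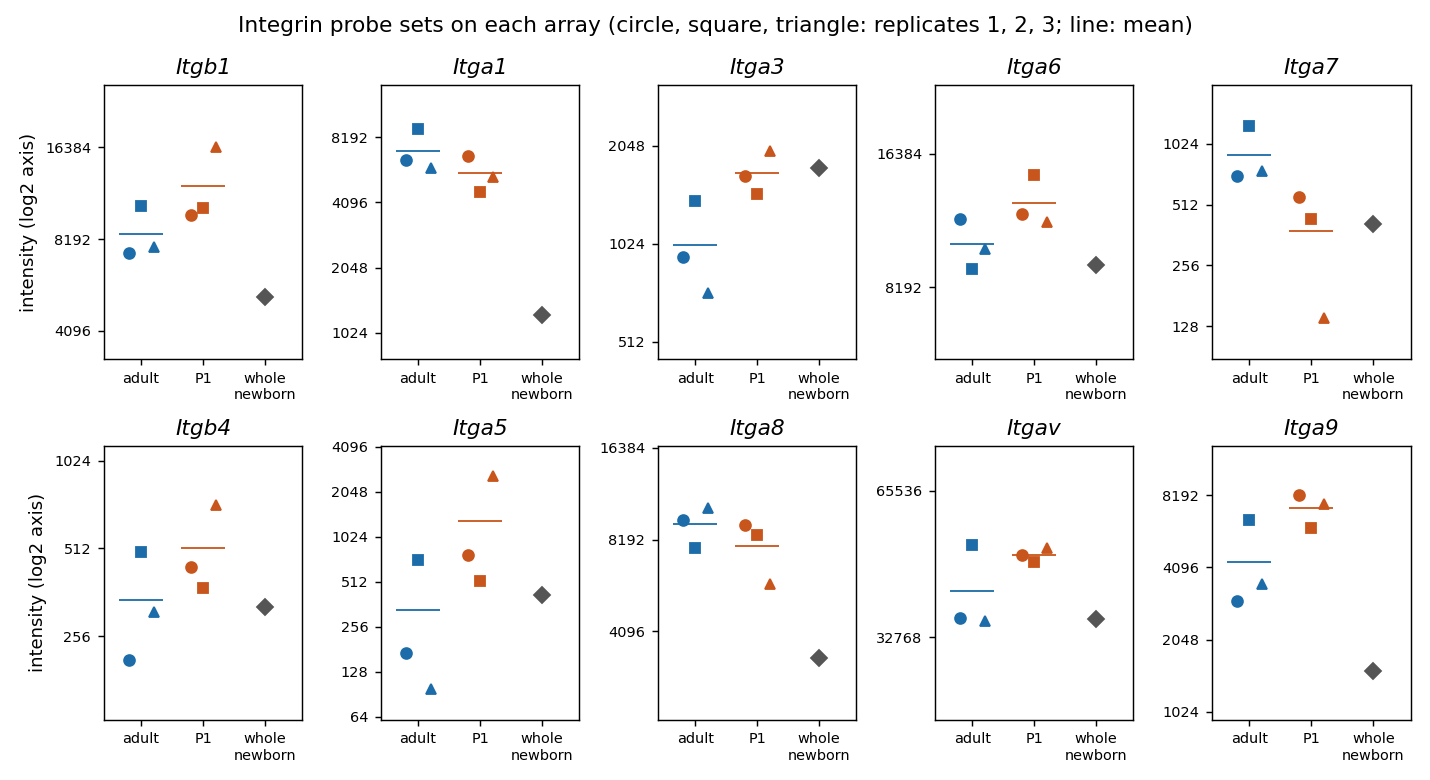
Deposited intensity of each integrin's brightest probe set on the 7 arrays, on a log2 axis; circles, squares and triangles are replicates 1, 2 and 3 of each bladder group, horizontal lines are means over the 3 replicates, and grey diamonds are the whole-newborn array. Itga1 sits well above its diamond in all 6 bladders, while the adult and P1 points of Itga3 and Itga7 are the pairs that do not overlap.

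Itgb1, the beta subunit shared by most of these receptors, gave 7366, 10517 and 7730 in the adult bladders, 9801, 10355 and 16353 in the P1 bladders and 5304 in the newborn (probe set 1426918_at). All 6 bladders stood above the newborn, and the stage groups overlapped because adult replicate 2 exceeded P1 replicates 1 and 2. The mean was 8538 ± 1720 (SD, n = 3) in the adult and 12170 ± 3630 (SD, n = 3) in P1 bladder. The adult-minus-P1 difference of -0.49 (SE 0.27; 95% interval -1.10 to 0.12) missed the threshold (limma adjusted p = 0.319). P1 bladder was 2.29 times the newborn, a log2 difference of 1.15 with a limma adjusted p of 0.109, and the same difference was 1.83 with an adjusted p of 0.0204 after centring. After quantile normalization it was 0.996 (limma adjusted p = 0.155).

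Itga1 makes with Itgb1 a receptor for collagens, including the collagen IV around smooth muscle cells. Its probe set 1455251_at read 6442, 8920 and 5881 in adult bladder, 6731, 4596 and 5388 in P1 bladder, and 1241 in the newborn. Every bladder lay well above the newborn, and the stage groups overlapped. The adult mean of 7081 ± 1620 (SD, n = 3) was 5.71 times the newborn value, a log2 difference of 2.44 (SE 0.38; limma adjusted p = 0.00406). The P1 mean of 5572 ± 1080 (SD, n = 3) was 4.49 times the newborn value, a log2 difference of 2.11 (SE 0.38; limma adjusted p = 0.0116). These were higher under either scaling, at 3.11 and 2.79 after centring. The stage difference was 0.34, with a 95% interval from -0.26 to 0.94. A second probe set for Itga1 gave smaller differences from the newborn, 1.16 for the adult and 1.24 for P1 bladder, with limma adjusted p of 0.491 and 0.499.

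Laminin is bound by Itga3, Itga6 and Itga7. Itga3, which with Itgb1 anchors many epithelia to laminin, measured 932.7, 1385 and 724.9 in the adult, 1655, 1458 and 1971 in P1 bladder and 1754 in the newborn (1455158_at). Each adult bladder lay below each P1 bladder and below the newborn, and the newborn value fell among those of P1. The adult mean was 1014 ± 338 and the P1 mean 1694 ± 259 (SD, n = 3 each). The stage difference was -0.75 (SE 0.32; 95% interval -1.48 to -0.02), with an unadjusted p of 0.0451 and a limma adjusted p of 0.198. Against the newborn the adult difference was -0.81 (limma adjusted p = 0.312), and -0.14 after centring.

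Itga6, the laminin receptor subunit that pairs with either Itgb1 or Itgb4, gave 11679, 9026 and 9980 in adult bladder, 11980, 14638 and 11498 in P1 bladder and 9192 in the newborn (1422445_at). The groups overlapped, and adult replicate 2 was below the newborn. Neither the stage difference of -0.31 (95% interval -0.80 to 0.18; limma adjusted p = 0.436) nor the difference of P1 bladder from the newborn, 0.46 (limma adjusted p = 0.425; 1.14 after centring), passed the test. Itgb4, its hemidesmosome partner, was dim: 212.1, 497.5 and 309.7 in the adult, 443.2, 374.2 and 719.4 in P1 bladder and 323.8 in the newborn (1427387_a_at). Its groups overlapped, with a stage difference of -0.55 and a 95% interval from -1.50 to 0.40 (limma adjusted p = 0.482).

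Itga7 pairs with Itgb1 in muscle and is the main laminin-binding alpha subunit of skeletal, cardiac and smooth muscle fibres. Its sole probe set, 1418393_a_at, read 705.9, 1252 and 748.6 in adult bladder, 559.3, 434.4 and 140.9 in P1 bladder and 409.6 in the newborn. All adult values exceeded all P1 values, and P1 replicate 3 was the lowest of the 7 arrays. The means were 902 ± 303 in the adult and 378.2 ± 215 in P1 bladder (SD, n = 3 each), a ratio of 2.39. The log2 difference of 1.27 (SE 0.48; 95% interval 0.18 to 2.36) had an unadjusted p of 0.0269 and a limma adjusted p of 0.147, and without P1 replicate 3 it was 0.77. That array also had the lowest sum of skeletal muscle markers of the P1 bladders, 33200. The adult bladders, with the highest Itga7 values, had the lowest sums of all, 2204 to 2758, and the newborn the highest, 287100. The part of those cells in the Itga7 values was not tested.

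Itga5, Itga8 and Itgav belong to the receptors that read the RGD tripeptide of matrix proteins. Itga5, the fibronectin receptor subunit, measured 170.3, 719.8 and 97.97 in the adult, 778.7, 516.9 and 2598 in P1 bladder and 419.1 in the newborn (1423268_at). It was below the array median on 3 of the 7 arrays, and adult replicate 2 and P1 replicate 3 stood far above the rest of their groups. Adult replicate 2 kept the groups overlapping. The adult mean was 329.4 ± 340 and the P1 mean 1298 ± 1130 (SD, n = 3 each). The stage difference of -1.88 (SE 0.72; 95% interval -3.49 to -0.27) missed the threshold with a limma adjusted p of 0.147. Without adult replicate 2 it was -2.58 with an adjusted p of 0.0464, and without P1 replicate 3 it was -1.23 with an adjusted p of 0.327.

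Itga8, whose pairing with Itgb1 binds nephronectin and fibronectin, gave 9523, 7691 and 10419 in adult bladder, 9144, 8515 and 5843 in P1 bladder and 3359 in the newborn (1454966_at). All 6 bladders were above the newborn and the stage groups overlapped. The adult mean of 9211 ± 1390 (SD, n = 3) was 2.74 times the newborn value, a log2 difference of 1.43 (SE 0.36; limma adjusted p = 0.0342), and 2.10 after centring. Leaving out adult replicate 1, adult replicate 3 or P1 replicate 2 gave limma adjusted p of 0.0913, 0.107 and 0.0530, so the call rested on each of these arrays. The call was also absent without the variance trend (limma adjusted p = 0.0789). P1 bladder, at a mean of 7834 ± 1750 (SD, n = 3), was 2.33 times the newborn, a difference of 1.18 with a limma adjusted p of 0.0844. The second Itga8 probe set gave 0.55 for the adult and 0.15 for P1 bladder, neither called.

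Itgav, which forms receptors for vitronectin and latent TGF-beta with several beta subunits, was bright on every array. It read 35882, 50750 and 35464 in the adult, 48342, 46831 and 50104 in P1 bladder and 35719 in the newborn (1452784_at). Adult replicate 2 lay just above the P1 bladders, whereas adult replicates 1 and 3 lay close to the newborn. The stage difference was -0.27 (95% interval -0.70 to 0.15; limma adjusted p = 0.435). P1 bladder was 1.36 times the newborn, a difference of 0.44 with a limma adjusted p of 0.391, and 1.12 with an adjusted p of 0.0291 after centring. After quantile normalization that difference was 0.45 (limma adjusted p = 0.126).

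Itga9, which with Itgb1 binds tenascin-C and other non-collagen ligands, measured 2968, 6440 and 3507 in adult bladder, 8245, 6004 and 7530 in P1 bladder and 1518 in the newborn (1460285_at). All bladders exceeded the newborn, and adult replicate 2 alone reached into the P1 range. The P1 mean of 7260 ± 1140 (SD, n = 3) was 4.78 times the newborn value, a log2 difference of 2.21 (SE 0.46; limma adjusted p = 0.0218), and 2.89 after centring; without P1 replicate 1 the adjusted p was 0.0536. The adult mean of 4305 ± 1870 (SD, n = 3) was 2.84 times the newborn, a difference of 1.39 with a limma adjusted p of 0.0856. The stage difference was -0.82 (SE 0.32; 95% interval -1.54 to -0.09; limma adjusted p = 0.162), and -1.15 with an adjusted p of 0.0306 without adult replicate 2.

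**Figure D2:**
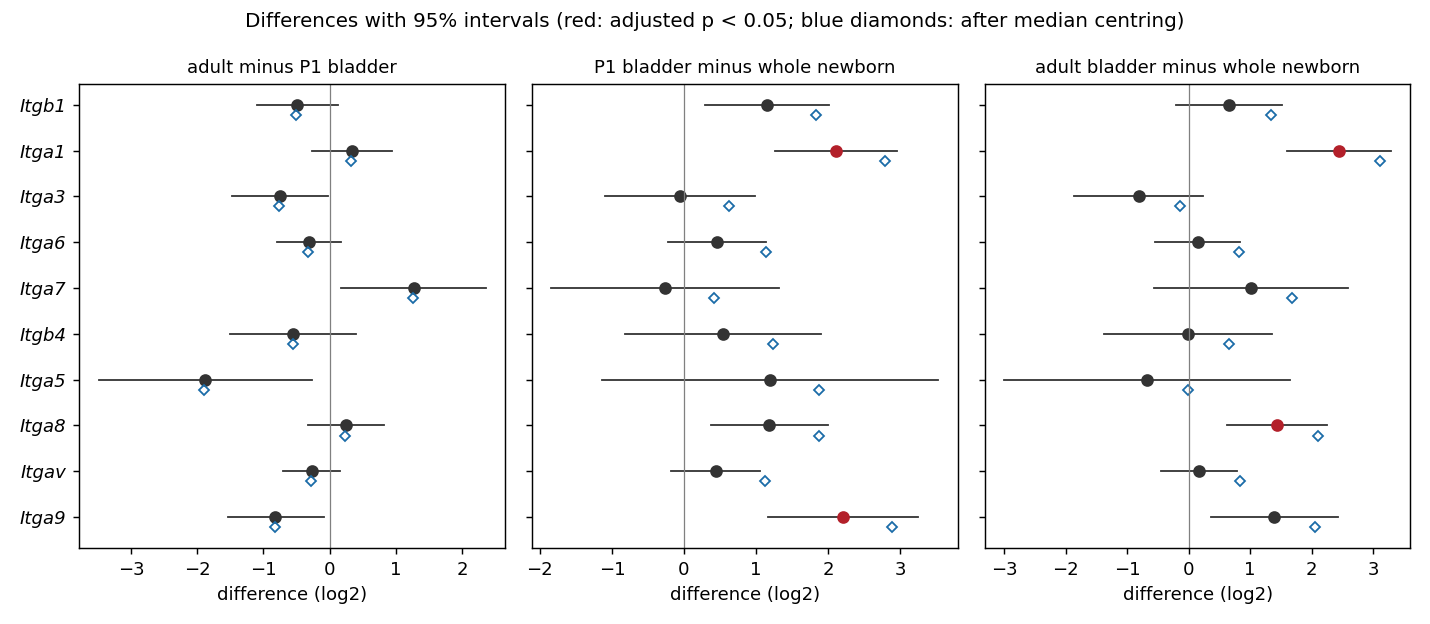
Log2 differences of the 10 integrins in the comparisons of adult with P1 bladder, P1 bladder with the whole newborn and adult bladder with the whole newborn; points are estimates, bars 95% intervals, red marks a limma adjusted p under 0.05, and blue diamonds show the values after median centring. No stage difference is red, Itga1 is red against the newborn at both stages, Itga9 at P1 and Itga8 in the adult, and centring moves the newborn comparisons to the right.

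Counted over the set, P1 bladder had 2 of 10 integrins called higher than the newborn, Itga1 and Itga9, and 0 called lower, where the background was 2.3% higher and 5.12% lower of 28316 probe sets. After centring 5 were called higher, Itga1, Itga8, Itga9, Itgav and Itgb1, with a background of 5.83%, and 0 lower, with a background of 3.03%. Quantile normalization, another scaling, did not call Itga8, Itgav and Itgb1 at P1 (limma adjusted p = 0.078, 0.126 and 0.155). All 3 P1 values lay above the newborn for 8 of 10, against 27.7% of probe sets, and below it for 0, against 37.7%. After centring these were 9 of 10, against 54.4%, and 0, against 18.1%. Adult bladder had 2 called higher, Itga1 and Itga8, and 0 lower, where the background was 4.4% higher and 7.2% lower of 28062 probe sets. After centring there were 4, Itga1, Itga8, Itga9 and Itgb1, with a background of 9.55%, and 0 lower, with a background of 4.33%. Quantile normalization did not call Itga9 and Itgb1 in the adult (limma adjusted p = 0.0654 and 0.437). All 3 adult values lay above the newborn for 5 of 10, Itga1, Itga7, Itga8, Itga9 and Itgb1, against 28.9% of probe sets, and below it for 1, Itga3, against 39.3%. After centring these were 8 of 10, against 52.5%, and 0, against 20.7%. Itga3, Itga5, Itga6, Itga7 and Itgb4 were called at neither stage, as deposited or after centring. Itga5, Itga7 and Itgb4 had differences of 1.20, -0.26 and 0.54 at P1 (1.88, 0.42 and 1.23 after centring). In the adult theirs were -0.68, 1.01 and -0.01 (-0.01, 1.68 and 0.66 after centring). The members' median difference was 0.85 for P1 and 0.42 for adult bladder, beside -0.15 and -0.17 over all probe sets. The comparisons share the newborn array, which has no replicate and was assumed to vary like the bladder arrays. Smooth muscle markers summed to between 287400 and 448900 in the bladders and 72840 in the newborn, and urothelial markers to between 280500 and 368100 against 79310; their part in these differences was not tested.

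Other probe sets of the same genes differed from the brightest in how much they showed. For Itgb1, a second probe set gave 1.70 for P1 bladder over the newborn (limma adjusted p = 0.0413), more than the brightest, and another, whose name marks possible cross-hybridisation (_x_at), gave -0.19. The second Itga9 probe set gave 1.35 at P1 with a limma adjusted p of 0.180. In the stage comparison the second Itga5 probe set had all adult values below the P1 values, with a difference of -1.41 (limma adjusted p = 0.126), and another gave -0.74. The second Itga6 probe set gave -0.29 beside -0.31 for the brightest. With the mean of all its probe sets standing for each gene, none of the 10 was called against the newborn at P1, and none of the 8 tested in the adult (Itga3 and Itga5 were below the filter there).

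**Figure D3:**
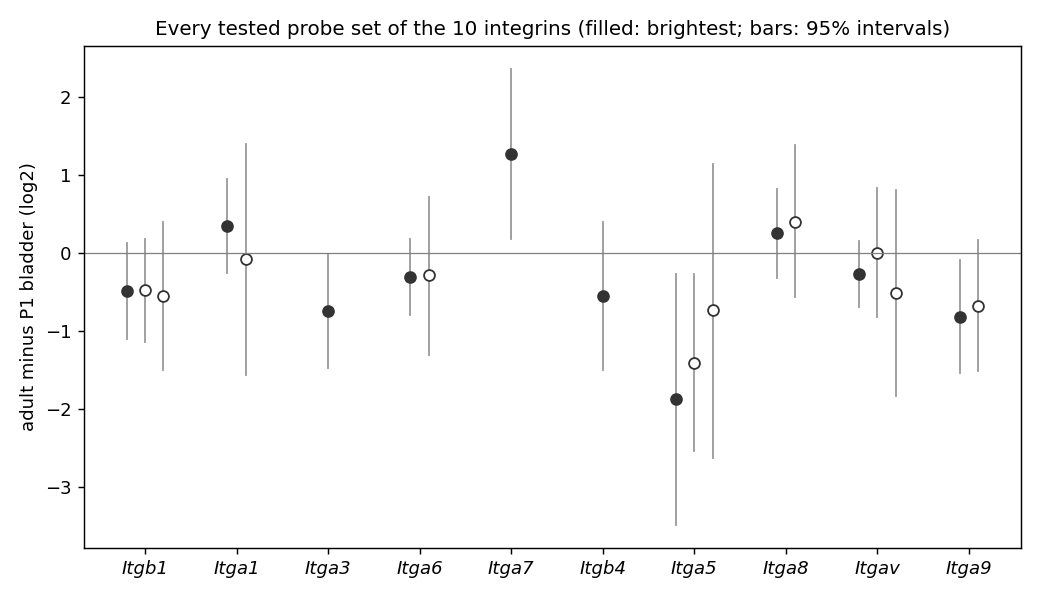
Adult-minus-P1 log2 difference of every tested probe set of the 10 integrins, with 95% intervals; filled points are the brightest probe set of each gene and open points the others. The probe sets of Itga5 all lie below 0, while those of Itga1 and Itgav lie on both sides of 0 or at it.

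Adult replicate 2 tended to read higher than the other adult bladders for these genes, mostly within the spread of all probe sets. For 8 of the 10 integrins, all but Itga6 and Itga8, it lay above the mean of adult replicates 1 and 3, by ratios from 1.39 for Itgb1 to 5.37 for Itga5. The members' median ratio was 0.63 on the log2 scale, beside 0.07 over all probe sets, of which the middle range from the 10th to the 90th percentile ran from -0.89 to 1.10. Above that range lay 1 of the 10 integrins, Itga5, where by definition 10% of all probe sets lie. Markers of male accessory glands, a tissue that lies beside the bladder neck, were above the array median for 8 of 9 genes in adult replicates 1 and 3 and for 0 of 9 in adult replicate 2. Leukocyte markers summed to 49310 in adult replicate 2, against 20120 and 24870 in adult replicates 1 and 3, and fibroblast markers to 334300, against 216200 and 202900. Smooth muscle markers summed to 448900, against 300600 and 299000, and urothelial markers to 351500, against 280500 and 287000. The hybridization spike-ins of adult replicate 2 were also the strongest of the 7 arrays, 2.35 times the weakest. The part of these tissues and of the array's signal in the integrin values was not tested. Without that array Itga5 and Itga9 were called lower in the adult, as given above.

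Genes for what integrins bind outside the cell and for what binds them inside were read from lists of partners. Of 28 matrix ligands tested, 5 were lower in the adult and 0 higher, with a median of -0.46, beside 4.12% lower, 3.73% higher and a median of 0.02 over all probe sets. Lamb1, the laminin beta 1 chain, read 17200 ± 1890 in adult and 42310 ± 3920 in P1 bladder (SD, n = 3 each), a difference of -1.30 (limma adjusted p = 0.00464). Npnt, nephronectin, the ligand of Itga8, gave 923.7, 491.8 and 1261 in the adult, 3500, 3586 and 3647 in P1 bladder and 3203 in the newborn. Every adult value was below every P1 value and the newborn, and its stage difference was -2.04 (SE 0.35; limma adjusted p = 0.0105). The other ligands lower in the adult were Col1a1, a chain of collagen I, by -1.98, and the basement membrane linkers Nid2 and Nid1, by -2.09 and -1.01; the Nid1 call was absent when adult replicate 1, adult replicate 3, P1 replicate 1 or P1 replicate 2 was left out (limma adjusted p from 0.0615 to 0.0999). It was also absent after centring (0.0603), without the variance trend (0.0623) and with the mean of probe sets (-0.56, limma adjusted p = 0.392). Fn1, Col4a1 and Tnc, ligands of Itga5, Itga1 and Itga9, gave -0.34, -0.54 and -0.35, none of them called.

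Among 26 cytoplasmic adaptors tested, 1 was lower in the adult and 0 higher. That was Ilk, integrin-linked kinase, which joins the beta 1 tail to actin, with 6304 ± 474 in the adult and 13870 ± 2240 in P1 bladder (SD, n = 3 each). Its difference of -1.12 had a limma adjusted p of 0.0180, and 0.0557 after centring. With adult replicate 1, adult replicate 3, P1 replicate 2 or P1 replicate 3 left out, its limma adjusted p ran from 0.0581 to 0.0802. Talin 1 (Tln1), kindlin 2 (Fermt2) and vinculin (Vcl) gave -0.40, -0.40 and -0.58, not called. Of 6 hemidesmosome partners, 0 were called, and Dst and Plec, which tie Itgb4 to keratin, gave 0.24 and -0.21 for the adult minus P1. The collagen Col17a1, the tetraspanin Cd151 and the laminin chain Lamb3 gave -0.38, 0.43 and 0.02. Among the beta subunits that pair with Itgav, Itgb3, Itgb5, Itgb6 and Itgb8 gave -0.49, 0.27, 0.74 and 0.67, none of them called.

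Against the newborn, adaptors of the muscle cytoskeleton were among the genes higher in bladder. In P1 bladder 10 of 26 adaptors were called higher and 1 lower, and in the adult 8 higher and 1 lower, beside 2.3% higher and 5.12% lower of all probe sets at P1 and 4.4% and 7.2% in the adult. Of the 8, 4 were still called with the mean of probe sets, where Vcl, Lims1, Fermt2 and Actn1 were not, and 5 without adult replicate 1 or adult replicate 3, where Vcl, Lims1 and Fermt2 were not. Without the variance trend 4 of the 8 were still called. Of the 10 at P1, 7 were still called with the mean of probe sets, 7 without the variance trend and 7 without P1 replicate 2. In each of these settings Lims1, Fermt2 and Actn1 were not. Without P1 replicate 1, 8 of the 10 were still called. The adaptors higher at P1 included the LIM protein Csrp1 at 5.04, filamin A (Flna) at 2.49, Tns1 at 2.71, Vcl at 1.61, Fermt2 at 1.65 and Ilk at 1.63. After centring these were 5.72, 3.17, 3.40, 2.30, 2.34 and 2.31, all called. The Fermt2 call at P1 was absent without P1 replicate 2 (limma adjusted p = 0.0518), without the trend (0.0631) and with the mean of probe sets (0.80, limma adjusted p = 0.156). The adaptor called lower was Itgb1bp2, melusin, a striated muscle protein that binds the Itgb1 tail, at -4.09 in P1 and -5.58 in adult bladder (-3.40 and -4.91 after centring). Of 29 ligands, 2 were called higher at P1, the laminin chain Lama5 and the collagen IV chain Col4a5, and 2 lower, Vtn (vitronectin, made chiefly by liver) and Egfl6. Apart from Vtn, these calls were absent without adult replicate 1, adult replicate 3 or P1 replicates 1 or 3 (limma adjusted p from 0.0541 to 0.0855), and for Lama5 and Egfl6 also without P1 replicate 2 (0.0533 and 0.0847). After centring Lama5, Col4a5 and Vtn gave 2.39, 2.29 and -5.80, all called, and Egfl6 -0.98 (limma adjusted p = 0.195) in place of -1.66. Lama5 was not called with the mean of probe sets (1.03, limma adjusted p = 0.123). In the adult, 2 of 29 ligands were called higher, Col4a5 and Col4a6, and 5 lower, Vtn, Npnt, Col1a1, Nid2 and Egfl6. Npnt was at -1.88 (limma adjusted p = 0.0419) and was not called in 8 of 17 alternatives. After centring Npnt, Col1a1, Nid2 and Egfl6 were not called (limma adjusted p from 0.0750 to 0.215). Without adult replicate 3, Col4a5, Col4a6 and Col1a1 were not (0.0505 to 0.0843). Among the other integrin subunits tested, 12 at P1 and 13 in the adult, Itgb3, a partner of Itgav, was called higher in both, at 2.77 in P1 and 2.28 in adult bladder (limma adjusted p = 0.00228 and 0.00413), and at 3.45 and 2.94 after centring. Dst was called higher in both, at 1.27 in P1 and 1.51 in adult bladder (1.95 and 2.18 after centring), and Col17a1 lower in both, at -2.34 and -2.72. After centring Col17a1 was at -1.65 in P1 bladder (limma adjusted p = 0.0731, not called) and at -2.05 in the adult (0.0299). The Dst call at P1 was absent without adult replicates 1 or 3 or P1 replicates 1 or 2 (limma adjusted p from 0.0549 to 0.0670), and that of Col17a1 at P1 without P1 replicate 2 (0.0548). Itgb3 in the adult, and Dst at both stages, were not called with the mean of probe sets. Epidermis markers summed to 207000 in the newborn and to between 12250 and 42240 in the bladders; their part in the Col17a1 values was not tested.

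**Figure D4:**
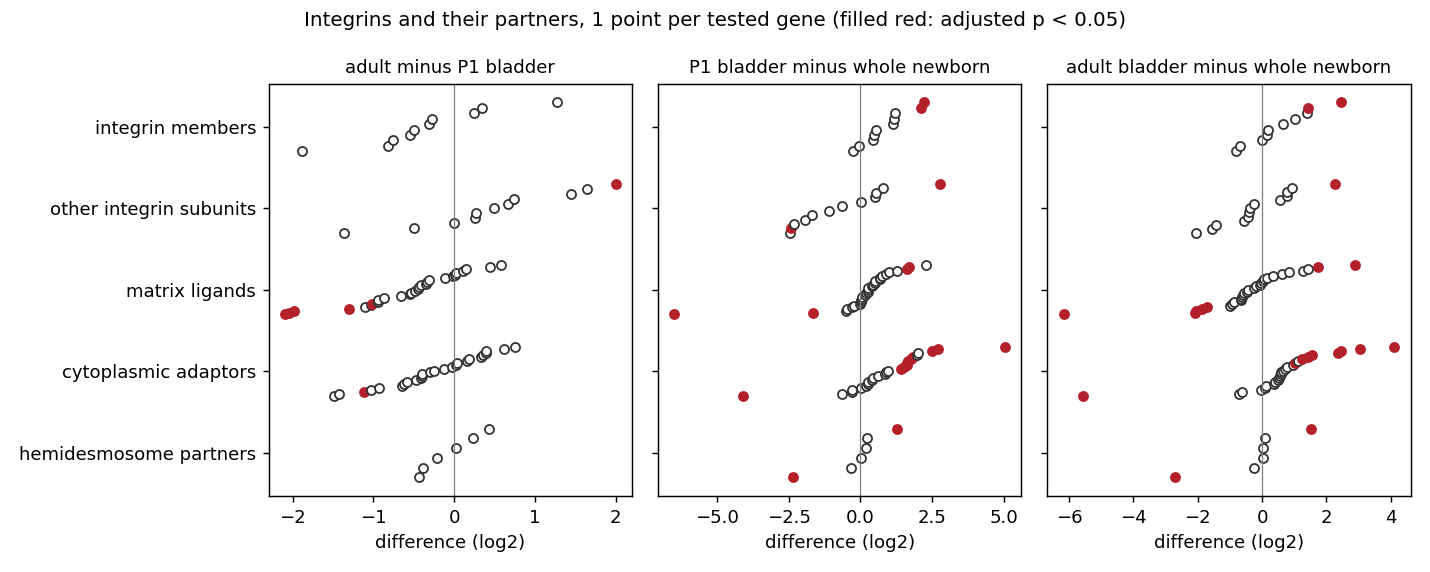
Log2 differences of the 10 integrins and of 4 groups of partner genes (other integrin subunits, matrix ligands, cytoplasmic adaptors and hemidesmosome partners) in the 3 comparisons; each point is a gene and filled red points have a limma adjusted p under 0.05. Matrix ligands hold 5 red points left of 0 in the stage comparison, and adaptors hold 10 and 8 red points right of 0 against the newborn in P1 and adult bladder.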

How the data were processed

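The authors deposited 1 table of intensities for 7 arrays of 45101 probe sets. Per the submitters' processing notes these came from GCOS. Its version, how probes were summarised and the target of the scaling were not given in the sources used here. The deposited intensity values are linear and were scaled by the authors: the mean after trimming 2% at each end was equal on all arrays, as checked on the values. Control probe sets (64) were left out. The platform annotation gave 34945 probe sets 1 gene, 932 several and 9160 none, and of 173 listed member, partner and marker genes 162 were found. Such intensities carry no counts, so the depth is a matter of the number of arrays.

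A pseudocount of 49, the 20th percentile, was added to each intensity before log2, so log2 differences understate those of dim genes and are not exactly the log of the ratio of means. The stage comparison used the 6 bladder arrays and probe sets above the array median in at least 3 of them. The newborn comparisons used all 7 arrays in 3 groups and probe sets above the median on at least 1 of the arrays compared. Tests were two-sided, by limma 3.58.1 (lmFit, eBayes with a trend) in R 4.3.3, with Benjamini-Hochberg adjustment over all probe sets tested and a threshold of 0.05; the code was tested on simulated data. Replicate numbers follow sample order and pair nothing. The genes named are the 10 members and, of each partner list, up to 4 called between stages by smallest adjusted p, any called against the direction of most in its list, and direct partners of members. Nid1, Itgb7, Col4a5, Col4a6, Egfl6, Lims1 and the adaptors Csrp1, Flna, Tns1, Vcl and Actn1 were named after their values were seen. The members and lists were chosen with earlier results of these data known. Alternatives changed the pseudocount, scaling, filter, trend, array weights, probe set choice and replicates.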

Additional observations from a re-analysis of the deposited data

How the results depend on the processing

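No paired analysis was possible because the labels give no replicate numbers. Differences are log2. Counts of integrins called lower in the adult than at P1 (0) became 3 with array weights (Itga3 -1.02, Itga5 -2.51, Itga9 -1.03) and 2 when the pair of arrays with the strongest spike-in signal, adult replicate 2 and P1 replicate 3, was dropped; leaving out 1 replicate gave 0 to 2. Integrins higher in P1 bladder than the newborn (2) became 5 after centring, 4 with array weights, 4 with that pair dropped and 0 with the mean of probe sets; leaving out 1 replicate gave 1 to 3. Integrins higher in adult bladder than the newborn (2) became 4 after centring, 1 without the trend and 0 with the mean of probe sets, with leave-one-out counts of 1 to 2; array weights gave 3 higher, adding Itga9 at 1.17, and 1 lower, Itga3 at -1.07. The mean of probe sets gave Itga1 1.67 (limma adjusted p = 0.0865) at P1 and 1.80 (0.0519) in the adult, Itga9 0.88 (0.425) at P1 and Itga8 0.99 (0.105) in the adult. The integrins that centring added against the newborn were not called after quantile normalization at either stage, as given above.

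Signs turned for these values, of which Lims1 alone had been called. By stage: Itga1 -0.083 and Itgav 0.0033 on the second probe set. P1 against newborn: Itga3 0.62 after centring, 0.092 after quantile normalization, and from -0.17 to 0.042 leaving out 1 replicate (above 0 without P1 replicate 2); Itga7 0.42 after centring, 0.42 after quantile normalization, and from -0.60 to 0.24 leaving out 1 replicate (0.24 without P1 replicate 3, also with the pair dropped); Itgav -0.35 for the mean of probe sets; Itga6 -0.16 on the second probe set. Adult against newborn: Itgb4 0.0074 with the 40th-percentile pseudocount, 0.66 after centring, 0.69 after quantile normalization, from -0.29 to 0.25 leaving out 1 replicate (0.25 and 0.019 without adult replicates 1 and 3); Itga5 0.0094 and Itga6 -0.046 after quantile normalization; Itga6 -0.15 for the mean of probe sets and -0.45 on the second probe set; Itgav -0.70 for the mean of probe sets and from -0.0019 to 0.26 leaving out 1 replicate (-0.0019 without adult replicate 2, also with the pair dropped); Itgb1 -0.035 for the mean of probe sets, which also turned Lims1, an adaptor, to -0.061. The cause was not tested.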

Other observations

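Among the integrin subunits outside the 10 members are those of white blood cells. Itgb2, the beta subunit common to the leukocyte integrins, read 897.4, 1294 and 895.2 in adult bladder, 287.4, 170.3 and 206.9 in P1 bladder and 1383 in the newborn. All adult values were above all P1 values, with a difference of 2.00 (SE 0.35; limma adjusted p = 0.0113), and without adult replicate 3 the adjusted p was 0.0547. It was the 1 of 11 other integrin subunits tested that was called higher in the adult. In P1 bladder it was lower than in the newborn by -2.43 (limma adjusted p = 0.0207). Itgb7, which lymphocytes pair with Itga4 or Itgae, gave 421.7, 465.3 and 339.6 in the adult and 79.99, 64.01 and 166.2 in P1 bladder, a difference of 1.64 that missed the threshold (limma adjusted p = 0.0538). Itga4 pointed the other way, at -1.36, also not called (limma adjusted p = 0.114). Leukocyte markers summed to between 20120 and 49310 in adult bladder and to between 7816 and 12020 in P1 bladder; their part in the Itgb2 values was not tested.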
